A study of Homo sapiens with 8 samples.

Results

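The lysyl oxidase family is made up of 5 human genes, LOX, LOXL1, LOXL2, LOXL3 and LOXL4, and all 5 were found by gene identifier among the 28395 genes of the deposited table. The family was taken up because LOXL3 was seen to be lower in both lines labelled as ANXA4 knockouts than in the control lines, so the family was chosen by the LOXL3 levels in these libraries, and those values are given as a description with no test. Of the 5 members, 4 passed a filter of at least 10 normalized counts in at least 2 libraries and entered the tests, out of 14040 genes tested in all; LOXL4 did not pass.

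The cells were A-498, a human line established from a kidney carcinoma. Every line carried a guide RNA: control line 1 and control line 2 are labelled wild type and carried the first and the second non-targeting guide, whereas KO guide 1 and KO guide 2 are labelled ANXA4 knockouts and carried the first and the second guide against ANXA4, the gene of annexin A4, a protein that binds phospholipid in the presence of calcium. Each guide was represented by 1 line with 2 replicate libraries, which makes 8 polyA-selected libraries of non-confluent cells cultured for 24 hours in medium with 10% serum. Whether a line was a clone or a pool of edited cells is not given in the sources used here. Nor is what a replicate number marks, so p-values concern only these libraries and lines. For single lines and for line against line, they measure only the spread between replicate libraries within a line. Spread between lines enters only comparisons over both lines. Guide, line and any change that arose while a line was grown cannot be told apart.

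ANXA4 transcript was low in the libraries of KO guide 1, at 236 and 234 normalized counts, against 2821 to 6773 in the 4 control libraries. In the line labelled KO guide 2 it was 3432.5 and 4142, inside the control range, so the transcript does not separate that line from the controls; protein was not measured, and KO guide 2 stands below for the label alone. Libraries held 15784890 to 22631588 reads assigned to genes. KO guide 2 replicate 2 stood apart in its share of mitochondrial reads, 13.8% against 4.67% to 9.05% in the other 7. Of 7 markers of kidney epithelium and its carcinoma found in the deposited table, 5 had at least 10 reads in every library: PAX2, PAX8, KRT8, KRT18 and VIM. CA9, with 2 to 26 reads, and EPCAM, with 4 to 11, did not. The fibroblast markers DCN, LUM and FAP had at most 3 reads in each, COL1A1 being the only 1 of 6 fibroblast markers with at least 10 reads in every library, and their summed level was 552 to 1433 normalized counts in control and 181 to 518 in KO-labelled libraries.

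Lysyl oxidases are copper-dependent enzymes that are secreted and oxidize lysine side chains of collagen and elastin. The aldehydes formed react with neighbouring chains, and the resulting crosslinks give the matrix its strength. LOX and LOXL1 are made with a propeptide that is cut off outside the cell, while LOXL2, LOXL3 and LOXL4 carry scavenger receptor cysteine-rich domains. In clear cell kidney carcinoma, loss of VHL stabilises hypoxia-inducible factors, of which LOX and LOXL2 are known targets.

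LOXL2 was the most abundant member and LOX the next in all 8 libraries when levels were set per kilobase of transcript. In the control libraries LOXL2 stood at 6049 ± 893 normalized counts per kilobase (SD, n = 4), LOX at 292 ± 96.7, LOXL3 at 68.8 ± 10.4, LOXL1 at 14.4 ± 7.91 and LOXL4 at 0.262 ± 0.208. These control ranges did not overlap between neighbouring members. In KO guide 2 LOXL1, at 7.92 and 10.3 per kilobase, overlapped with LOXL3, at 6.20 and 8.96, so the order of those members was not separated there. LOXL2 made up 93.6% to 94.8% of the family's summed level per kilobase in control and 97.0% to 98.5% in KO-labelled libraries. The share of LOX was 3.35% to 5.17% against 1.23% to 2.70%, and that of LOXL3 0.870% to 1.60% against 0.120% to 0.295%. The summed level was 6425 ± 982.5 per kilobase in control (SD, n = 4), 3231 ± 119 in KO guide 1 and 5481 ± 464 in KO guide 2 (SD, n = 2 each). The order of the means was the same per kilobase of coding sequence, but the sizes were not: LOX then stood at 1192 in control, with a share of 8.48% to 12.7% in control and 3.22% to 6.91% in KO-labelled libraries, and LOXL2 made up 86.2% to 89.8% and 92.8% to 96.5%.

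**Figure D1:**
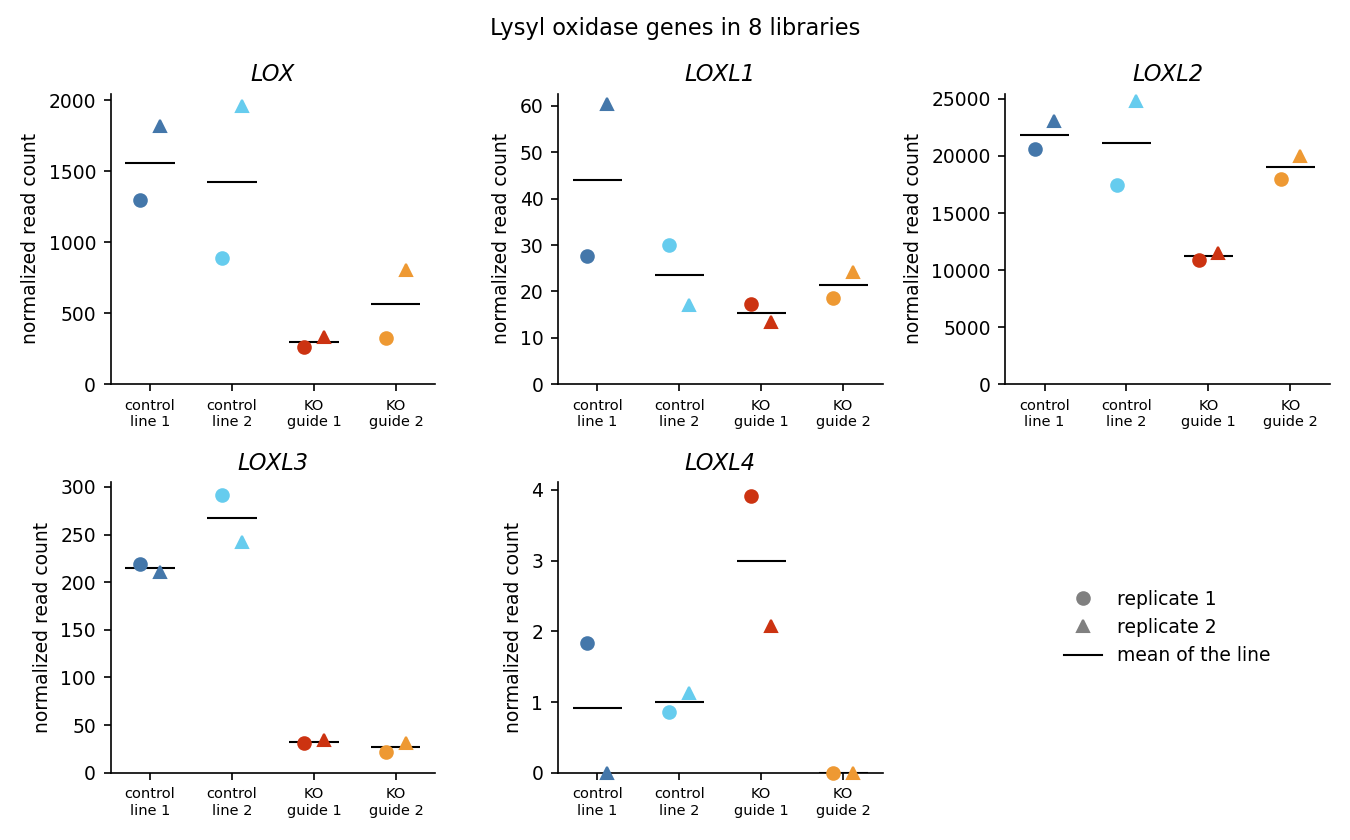
Normalized read counts of the 5 lysyl oxidase genes by line, each panel on its own linear axis from 0. Points are libraries and bars are line means; LOX and LOXL3 lie lower in all 4 KO-labelled libraries than in any control library, and LOXL2 is low in KO guide 1 and inside the control range in KO guide 2.

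LOXL3 encodes a lysyl oxidase needed for normal palate and spine formation. It lies on GRCh38 chr2:74532258-74555702, on the minus strand. Control line 1 gave 219 and 211 normalized counts of LOXL3, and control line 2 gave 292 and 242.5. KO guide 1 gave 31.3 and 34.2, and KO guide 2 gave 21.7 and 31.4. All KO-labelled libraries were thus far below all control libraries, and both KO-labelled lines lay at a like level. The control mean of 241 ± 36.3 stood against 29.7 ± 5.47 for the KO-labelled libraries (SD, n = 4 each), 8.13-fold lower, and the reads behind these values were 203 to 339 against 21 to 40. On the log2(normalized count + 1) scale the difference was -2.99 (SE 0.25) over both lines, -2.83 for KO guide 1 and -3.15 for KO guide 2. Set line against line, it was -2.68 for KO guide 1 against control line 1, -2.98 for KO guide 1 against control line 2, -2.99 for KO guide 2 against control line 1 and -3.30 for KO guide 2 against control line 2. KO guide 2 minus KO guide 1 was -0.31 (SE 0.24) and control line 2 minus control line 1 was 0.31, also given as a description, since the family was chosen on these libraries.

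Because LOXL3 and LOX were the members that were lower in every KO-labelled library, their promoters are shown: 250 bases before and 50 after an annotated start, from RefSeq on GRCh38.p14. The first LOXL3 window is chr2:74553893-74554192 and the second chr2:74549477-74549776, and the LOX window shown, the most upstream of 3, is chr5:122078210-122078509, all on the minus strand and written 5′ to 3′. Both LOXL3 windows lie inside the LOXL3 span, short of its 5′ end at 74555702, so no window at that end was searched. The LOX window shown covers the 5′ end of the LOX span. Capitals mark matches, on either strand, to ACGTG and GCGTG (hypoxia-inducible factor cores), CACCTG (the E-box of SNAIL factors), CAGAC (SMAD) and GGAATG (TEAD).
LOXL3 promoter 1: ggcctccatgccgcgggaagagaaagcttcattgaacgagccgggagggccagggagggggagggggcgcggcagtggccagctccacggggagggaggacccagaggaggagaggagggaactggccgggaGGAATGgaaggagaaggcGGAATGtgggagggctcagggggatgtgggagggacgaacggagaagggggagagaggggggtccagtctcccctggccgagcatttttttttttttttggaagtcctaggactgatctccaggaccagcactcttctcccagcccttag
LOXL3 promoter 2: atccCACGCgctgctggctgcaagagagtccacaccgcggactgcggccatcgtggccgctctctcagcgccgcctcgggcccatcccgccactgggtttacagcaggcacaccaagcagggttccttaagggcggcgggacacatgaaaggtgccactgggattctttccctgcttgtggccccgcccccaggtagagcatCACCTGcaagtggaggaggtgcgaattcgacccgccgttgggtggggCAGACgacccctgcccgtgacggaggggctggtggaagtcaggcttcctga
LOX promoter 1: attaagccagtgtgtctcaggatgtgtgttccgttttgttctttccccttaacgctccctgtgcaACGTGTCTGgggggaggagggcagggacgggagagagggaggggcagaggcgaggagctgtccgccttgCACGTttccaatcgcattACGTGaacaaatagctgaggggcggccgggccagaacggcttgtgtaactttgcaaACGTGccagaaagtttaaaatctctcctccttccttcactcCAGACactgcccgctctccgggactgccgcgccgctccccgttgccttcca
The LOX window shown held ACGTG at 4 positions, counted from its 5′ end: 66, 135, 153 and 209. The match at 66 overlaps a CAGAC match on the other strand that begins at 70. LOXL3 promoter 1 held GGAATG at 133 and 151 and none of the other motifs searched. LOXL3 promoter 2 held GCGTG at 5, CACCTG at 203 and CAGAC at 250. Of all RefSeq promoter windows of 300 bases, 21.4% held ACGTG, 36.5% GCGTG, 20.6% CACCTG, 45.3% CAGAC and 14% GGAATG, so single matches are common, and a match is a description of the letters only. LOX promoter 1 shared CAGAC with LOXL3 promoter 2 and no motif with LOXL3 promoter 1. The other LOX windows, chr5:122077174-122077473 and chr5:122077125-122077424, overlap each other, and each held ACGTG once and CAGAC at 2 positions as well as the GCGTG and CACCTG also present in LOXL3 promoter 2.

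Genes that overlap LOXL3 on the other strand were also lower in both KO-labelled lines. In the GENCODE 29 annotation HTRA2, a mitochondrial serine protease, shares 625 exonic bases with LOXL3, 14.3% of the exonic bases of LOXL3. DOK1, an adaptor protein of tyrosine kinase signalling, shares 216 exonic bases, 4.95% of those of LOXL3. Whether counting used the strand is not stated, so reads from the shared bases may have been assigned to either gene or to none. HTRA2 measured 428, 494, 637 and 914 normalized counts in the control libraries, 319 and 367 in KO guide 1 and 256.5 and 317.5 in KO guide 2. HTRA2 fell by 0.79 on the log2 scale in KO guide 1 (limma adjusted p = 0.0371) and fell by 1.05 in KO guide 2 (adjusted p = 0.00833), while over both lines the difference was -0.92 (SE 0.26, adjusted p = 0.191). DOK1 measured 835, 885, 1362 and 1200 in control, 456 and 540 in KO guide 1 and 522 and 418 in KO guide 2. DOK1 fell by 1.08 in KO guide 1 (adjusted p = 0.00418) and fell by 1.16 in KO guide 2 (adjusted p = 0.00243), and the difference over both lines was -1.12 (SE 0.20, adjusted p = 0.0563; edgeR adjusted p = 0.0182). For both genes no KO-labelled library reached the lowest control library, as for 5.51% of all tested genes, although the means differed by 1.96-fold for HTRA2 and 2.21-fold for DOK1, against 8.13-fold for LOXL3. The control lines differed as well, line 2 being higher by 0.73 for HTRA2 (adjusted p = 0.12; 0.00437 with the replicate number as a block) and by 0.57 for DOK1 (adjusted p = 0.121; 0.0216 with the block). The HTRA2 call in KO guide 1 was lost without control line 1 replicate 1 or 2, control line 2 replicate 2 or either KO guide 1 library (adjusted p 0.0702 to 0.248), and in KO guide 2 without its replicate 1 (adjusted p = 0.0504). The DOK1 call in KO guide 1 was lost without its replicate 1 (adjusted p = 0.0721). AUP1, the next gene beyond HTRA2, which shares no exonic base with LOXL3, differed by -0.28 (SE 0.23, adjusted p = 0.723). The part of the shared bases in these values was not tested.

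**Figure D2:**
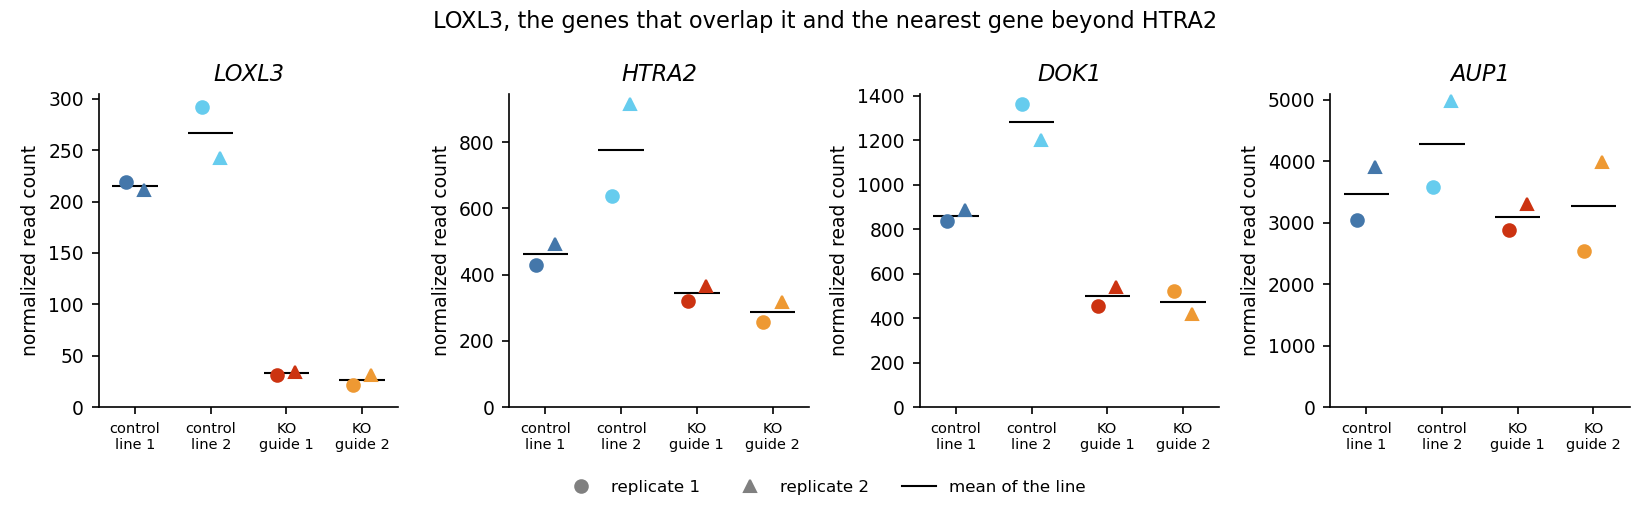
Normalized read counts of LOXL3, of HTRA2 and DOK1, which overlap it, and of AUP1, each on its own linear axis from 0. Points are libraries and bars are line means; the KO-labelled libraries lie below the controls for the first 3 genes and overlap with them for AUP1.

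LOX, the founding member and a main crosslinking enzyme of fibrillar collagen, lies on chr5:122063195-122078259 on the minus strand. It measured 1296 and 1817 normalized counts in control line 1, 889 and 1963 in control line 2, 263 and 330 in KO guide 1 and 324 and 801.5 in KO guide 2. The highest KO-labelled library was just below the lowest control library, so the arms did not overlap, a pattern that 5.51% of all tested genes shared with KO-labelled libraries lower. The control mean was 1491 ± 493 and that of the KO-labelled libraries 429.5 ± 250 (SD, n = 4 each), 3.47-fold lower. In KO guide 1 LOX fell by 2.27 on the log2 scale (SE 0.39, limma adjusted p = 0.0136), to 19.9% of the control mean. LOX fell by 1.48 in KO guide 2 (SE 0.39, adjusted p = 0.0442), to 37.7% of the control mean. Over both lines, with libraries of a line treated as correlated, the difference was -1.88 (SE 0.45, adjusted p = 0.133), and on the 4 line means it had an adjusted p of 0.47. It passed by edgeR (adjusted p = 0.0488) and by DESeq2 (adjusted p = 4.95e-05), which over both lines treated the replicates of a line as independent samples. An exact two-sided permutation test over the 8 libraries gave p = 0.0286 for LOX, the smallest it can give. That value follows from the arms not overlapping, so it adds no evidence, and the replicates of a line were permuted as if independent. The same exact permutation test gave p = 0.114 for LOXL1 and p = 0.114 for LOXL2. Over the 4 line means the exact permutation test gave p = 0.333 for LOX, LOXL1 and LOXL2 alike, the smallest possible. That test could not reach 0.05 for any gene. SRFBP1, which shares 138 exonic bases with LOX on the other strand, differed by -0.17 (SE 0.16, adjusted p = 0.766).

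Without the replicate number as a block, the calls for LOX in single lines rested on few libraries. The KO guide 1 call was lost without control line 1 replicate 2 or either KO guide 1 library (adjusted p 0.0522 to 0.133). The KO guide 2 call was lost without control line 1 replicate 1 or 2, control line 2 replicate 2, either KO guide 1 library or KO guide 2 replicate 1, without which the difference was -0.83 (adjusted p = 0.213). It also missed the threshold by edgeR (adjusted p = 0.0611) and DESeq2 (adjusted p = 0.0581). KO guide 2 replicate 2 was both the highest KO-labelled library for LOX and the one with the highest mitochondrial share; without it the difference over both lines was -2.22 (adjusted p = 0.0309). The part of that share in the LOX level was not tested. LOX was also higher in replicate 2 than in replicate 1 of every line, by 1.40-fold and 2.21-fold in control lines 1 and 2 and by 1.25-fold and 2.48-fold in KO guides 1 and 2. Such an order in every line was seen in 20.2% of tested genes. In a fit with the replicate number as a block, this difference was 0.82 (SE 0.14, adjusted p = 0.0041), where 8.97% of genes were called higher in replicate 2, and LOXL1 and LOXL2 did not pass the same test (adjusted p 0.868 and 0.117). With this replicate block the limma adjusted p for LOX against the controls was 4.34e-06 in KO guide 1 and 9.29e-05 in KO guide 2. There 24.4% and 27.4% of all genes were called in either direction. Over both lines the adjusted p with the block was 0.0522. No library was left out of the fits with the block. Between the KO-labelled lines LOX differed by 0.79 with the block (adjusted p = 0.0143, KO guide 2 higher), which without it did not pass (SE 0.45, adjusted p = 0.325). Without the block, that difference was 0.14 (adjusted p = 0.895) when KO guide 2 replicate 2 was left out and 1.44 (adjusted p = 0.0726) when KO guide 2 replicate 1 was, so it rested on single libraries.

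LOXL2, which also has reported roles in the nucleus and in epithelial-mesenchymal transition, lies on chr8:23296897-23404120 on the minus strand. It measured 20596 and 23023 normalized counts in control line 1, 17472.5 and 24782.5 in control line 2, 10926 and 11480 in KO guide 1, and 18014 and 19992 in KO guide 2. KO guide 1 was below every control library, while KO guide 2 lay inside the control range. In KO guide 1 LOXL2 fell by 0.93 on the log2 scale (SE 0.16, limma adjusted p = 0.0139, and 0.000166 with the replicate block), to 52.2% of the control mean. The difference for KO guide 2 was -0.17 (SE 0.16, adjusted p = 0.57), at 88.5% of the control mean. The difference between the KO-labelled lines was itself tested, and LOXL2 was higher in KO guide 2 by 0.76 (SE 0.19, adjusted p = 0.0453; 0.0017 with the replicate block). That call was lost when either library of control line 1, KO guide 1 or KO guide 2 was left out (adjusted p 0.0607 to 0.217). The KO guide 1 call was lost without control line 1 replicate 2 or either KO guide 1 library (adjusted p 0.0572 to 0.139). Over both lines the difference was -0.55 (SE 0.24, adjusted p = 0.418). LOXL2-AS1, a non-coding gene within the LOXL2 span, measured 7.05 to 18.1 normalized counts and differed by -0.03 (adjusted p = 0.992).

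LOXL1, known for its part in elastic fibre upkeep, lies on chr15:73926462-73952136 on the plus strand. It was low: 27.6 and 60.3 normalized counts in control line 1, 30.1 and 17.0 in control line 2, 17.2 and 13.5 in KO guide 1 and 18.6 and 24.1 in KO guide 2. The groups overlapped, and control line 1 replicate 2 was the highest library. With 13 to 58 reads behind each value, the differences were -0.95 in KO guide 1 (SE 0.39, limma adjusted p = 0.181) and -0.50 in KO guide 2 (adjusted p = 0.472). The control lines differed by -0.82 (adjusted p = 0.46). One library moved these values: without control line 1 replicate 2 they were -0.68, -0.23 and -0.27, and without control line 1 replicate 1 they were -1.23, -0.78 and -1.37. Leaving out 1 library of control line 2 gave -0.43 (replicate 2) or -1.22 (replicate 1) between the control lines, and the KO guide 2 difference was -0.31 without control line 2 replicate 1 and -0.32 without KO guide 2 replicate 1. LOXL1-AS1, which shares 335 exonic bases with LOXL1 on the other strand, differed by -0.06 over both lines (SE 0.33, adjusted p = 0.969).

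LOXL4, on chr10:98247690-98268194 on the minus strand, was close to absent, with 11 reads over all libraries. It had 2 and 0 reads in control line 1, 1 and 1 in control line 2, 5 and 2 in KO guide 1, and 0 in both KO guide 2 libraries. All but KO guide 1 replicate 1 were at or under the 3 reads that a count of 0 allows, so no fold is given.

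No other member was called higher in either KO-labelled line. The comparisons of each KO-labelled line use the same control libraries and are given side by side. In KO guide 1, 2 of the 3 other members tested (LOX and LOXL2) were called lower, against 3.18% of all tested genes called lower and 7.01% called in either direction. For KO guide 2 it was 1 of 3 (LOX), against 6.67% called lower and 11.2% in either direction. Over both lines limma called 0 of 3, against 0.235% of all tested genes called in either direction. Of the 3, 2 had an unadjusted p under 0.05, where 1615 of all 14040 tested genes did. By edgeR and DESeq2 1 each (LOX) was called, where they called 1.32% and 6.05% of all genes. Between the control lines limma called 0 of the 3 other members tested, while 2.13% of all genes were called. Of the 3, 0 had an unadjusted p under 0.05, where 2178 of all tested genes did. By edgeR and DESeq2 0 were called, where they called 286 and 655 of all tested genes. Between the KO-labelled lines 1 of 3 (LOXL2) was called higher in KO guide 2, against 2.41% of all genes, and 2 of 3 (LOX and LOXL2) with the replicate block, against 10.5%.

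**Figure D3:**
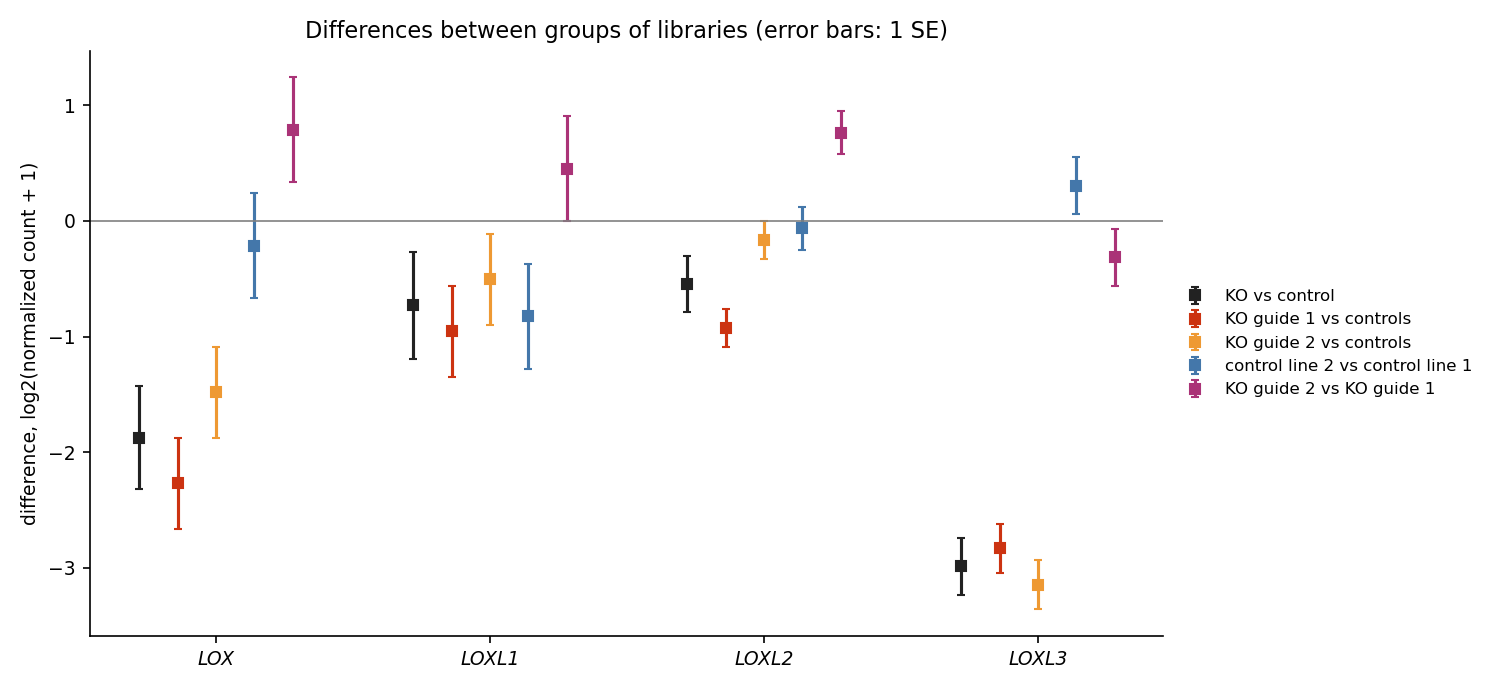
Differences of the 4 tested members on the log2(normalized count + 1) scale in 5 comparisons, with bars of 1 SE. LOXL3 is lowest in both KO-labelled lines, LOX follows with the wider error, and LOXL2 is lower in KO guide 1, the difference between the KO-labelled lines being 0.76; the LOXL3 values carry no test.

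Over the 8 libraries, which share lines and controls, the genes whose log2 levels were most like LOXL3 were IL11RA, the interleukin-11 receptor (Pearson r = 0.98, n = 8), ARL9 (0.98), SAAL1 (0.97), CCSAP (0.97) and IL7R, the interleukin-7 receptor (0.97). They were taken among tested genes with a mean of at least 50, as a description. Their differences were smaller: IL7R was 430 ± 57.3 over the controls and 124.5 ± 30.7 over the KO-labelled libraries (SD, n = 4 each), and IL11RA 61.8 ± 5.46 and 38.7 ± 2.00. For LOX the most alike were TMED3, PRADC1 and ECM1 (r = 0.99, 0.99 and 0.98), and for LOXL2 RALY, MRPL36 and TBXAS1 (1.00, 0.99 and 0.98). For LOXL1 they were C2CD2L, RASAL2 and CCNJ (0.92, 0.91 and 0.91). Between members r was 0.88 for LOX with LOXL2, 0.85 for LOX with LOXL3 and 0.60 for LOXL2 with LOXL3.

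The collagen substrates of the family were lower in both KO-labelled lines in part. Of 11 substrate genes 7 were tested, and 3 fell in KO guide 1 (COL1A1, COL4A1, COL5A1) and 5 in KO guide 2 (those and COL4A2 and COL5A3), with none higher, where 3.18% and 6.67% of all genes were called lower; with the replicate block COL5A3 was called in KO guide 1 as well. COL1A1, a chain of type I collagen, fell by 2.28 on the log2 scale in KO guide 1 (limma adjusted p = 0.000968) and fell by 1.03 in KO guide 2 (adjusted p = 0.018), and was higher in KO guide 2 than in KO guide 1 by 1.25 (adjusted p = 0.0251). It also differed between the control lines, by -0.82 (adjusted p = 0.143; 0.00294 with the block). COL5A1, a chain of type V collagen, measured 18316 and 20845 in control line 1, 10092 and 10403 in control line 2 and 5057 to 5836 in the KO-labelled libraries. COL5A1 differences were -1.32 and -1.42 in KO guides 1 and 2 (adjusted p = 0.000762 and 0.000427), and it also differed between the control lines by -0.93 (adjusted p = 0.0145). Over both lines limma called 0 of 7. Of the 7, 5 had an unadjusted p under 0.05, where 1615 of all 14040 genes did. By edgeR 2 were called and by DESeq2 5, where 1.32% and 6.05% of all genes were called in either direction. The list's median difference was -0.77, against 0.00 over all genes. The COL1A1 call in KO guide 2 was lost without control line 1 replicate 2 or KO guide 2 replicate 1 (adjusted p 0.0602 and 0.0966), and that between the KO-labelled lines without either KO guide 1 library or KO guide 2 replicate 2 (adjusted p 0.103 to 0.145). Genes named with the counts of single lines, here and below, were named after their values were seen.

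Among 11 tested of 13 genes for enzyme maturation and scaffold, THBS1, the matrix protein thrombospondin 1, was the 1 called over both lines: it fell by 1.22 (SE 0.19, limma adjusted p = 0.0245), from 3399 to 4684 normalized counts in control to 1330 to 2014 in KO-labelled libraries. That call was lost without control line 1 replicate 1 or 2, control line 2 replicate 1 or KO guide 2 replicate 1 (adjusted p 0.0657 to 0.141). In KO guide 1, 5 of the list were called lower than the mean of the control lines, where 3.18% of all genes were. Among them were FN1, fibronectin, POSTN, periostin, and TLL2, a protease of the BMP1 family. For KO guide 2, 3 fell, where 6.67% of all genes did, and FN1 was called higher on the log2 scale. With the replicate block 4 were called lower and 3 higher there (27.4% of all genes called). Between the control lines 5 were lower and 2 higher in line 2 with the block (12.5% called). Without the block 2 were lower, where 2.13% of all genes were called in either direction. FN1 measured 17998 and 20159 in control line 1 but 521 and 434 in control line 2, 794 and 896 in KO guide 1, and 6744 and 5270 in KO guide 2. KO guide 2 thus lay between the control lines, and its mean of 6007 was below the mean of 9778 over the 4 control libraries, so the FN1 call rests on the log2 scale. Control line 2 minus control line 1 was -5.32 for FN1 (adjusted p = 1.84e-06) and -5.41 for POSTN (adjusted p = 3.87e-05), against -1.84 and -2.07 for KO guide 1 minus the controls. POSTN measured 2073 and 1969 in control line 1, 63.7 and 34.0 in control line 2 and 74.4 and 71.6 in KO guide 1. KO guide 1 thus lay above control line 2 for FN1 and POSTN, and was lower than control line 1 only. The list's median difference was -0.85 in KO guide 1 and 0.35 in KO guide 2, opposite in sign, and -0.34 over both lines.

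All 17 genes of collagen lysine and proline modification were tested. In KO guide 1, 3 fell (CRTAP, P3H1, SERPINH1), where 3.18% of all genes did. In KO guide 2, 6 fell, where 6.67% of all genes did. Among these 6 was PLOD2, the lysyl hydroxylase of collagen telopeptides, which fell by 1.17 (limma adjusted p = 0.011). That call was lost without KO guide 2 replicate 1. With the replicate block 12 fell in KO guide 1 and 11 in KO guide 2. Of all 14040 genes, 1606 and 2095 were called lower there, and 24.4% and 27.4% in either direction. With the block 9 were lower in control line 2 than in control line 1, where 954 of all genes were called lower and 12.5% in either direction. Over both lines limma called 0 of 17, with a median of -0.51. Of the 17, 8 had an unadjusted p under 0.05, where 1615 of all 14040 genes did. By edgeR 1 was called and by DESeq2 5, where 1.32% and 6.05% of all genes were called in either direction. P4HA3, a prolyl hydroxylase subunit, differed by -1.30 over both lines (limma adjusted p = 0.407) and PLOD2 by -0.85 (adjusted p = 0.293). The median was -0.47 between the control lines too, with 1 of 17 (CRTAP) called lower in line 2, where 2.13% of all genes were called in either direction.

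Genes of copper supply, which lysyl oxidases need for their cofactor, had a median of 0.03 over both lines, and limma called 0 of 6. Of the 6, 0 had an unadjusted p under 0.05, where 1615 of all 14040 genes did. By edgeR and DESeq2 0 were called, where 1.32% and 6.05% of all genes were. In KO guide 2 the copper transporter gene SLC31A2 fell by 0.75 (adjusted p = 0.0159), a call lost without control line 1 replicate 2 or either KO guide 2 library (adjusted p 0.0511 to 0.0673). ATP7A, which loads copper into secreted enzymes, differed by 0.72 in KO guide 1 (adjusted p = 0.064; 0.00277 with the replicate block) and -0.22 in KO guide 2 (adjusted p = 0.532), and the difference between those lines was -0.94 (adjusted p = 0.0446), lost without any 1 library of control line 1, KO guide 1 or KO guide 2 (adjusted p 0.0682 to 0.239). The list's median was 0.03 in KO guide 1 and -0.27 in KO guide 2. Between those lines 3 of the 6 (ATP7A, SLC31A1 and SLC31A2) were called lower in KO guide 2, where 636 of all 14040 genes were. SLC31A1 measured 2179 and 2199 normalized counts in KO guide 1, 1163.5 and 954 in KO guide 2 and 1219 to 1641 in the control libraries. With the block 3 of the 6 were called in KO guide 1, 2 higher and 1 lower, and 3 in KO guide 2, 1 higher and 2 lower, where 24.4% and 27.4% of all genes were called. Of 8 other crosslinking enzymes and amine oxidases, 6 were tested and limma called 0 over both lines (0 at an unadjusted p under 0.05; 0 by edgeR and DESeq2), with a median of 0.17. In KO guide 2 PXDN, the peroxidase that crosslinks collagen IV, fell by 0.83 (adjusted p = 0.00659), and AOC2, an amine oxidase, differed by 0.44 over both lines (adjusted p = 0.59). Of 18 regulators 17 were tested. In KO guide 1, 1 rose (SMAD3) and 1 fell (SNAI1), where 7.01% of all genes were called in either direction. In KO guide 2, 3 fell (SNAI1, SNAI2 and TGFBR1), where 6.67% of all genes were called lower and 11.2% in either direction. With the block 5 regulators were called in KO guide 1 and 6 in KO guide 2, shares near the 24.4% and 27.4% of all genes called. Between the control lines TGFB1 was called without the block, higher in line 2, where 2.13% of all genes were called. With the block SNAI2, TGFB2, TGFBR1 and ZEB2 were called lower in line 2 as well, where 12.5% were called. SNAI1, a repressor that binds E-boxes, differed by -0.81 and -0.79 in KO guides 1 and 2 (adjusted p = 0.0273 and 0.0201). The first call was lost without control line 1 replicate 2, control line 2 replicate 2 or either KO guide 1 library and the second without control line 1 replicate 2 or either KO guide 2 library (adjusted p 0.0527 to 0.224). SNAI2, its relative, differed by -1.45 over both lines (SE 0.47, adjusted p = 0.271). Over both lines limma called 0 of 17 regulators, with a median of -0.05. Of the 17, 3 had an unadjusted p under 0.05, where 1615 of all 14040 genes did. By edgeR 1 was called and by DESeq2 2, where 1.32% and 6.05% of all genes were called in either direction.

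**Figure D4:**
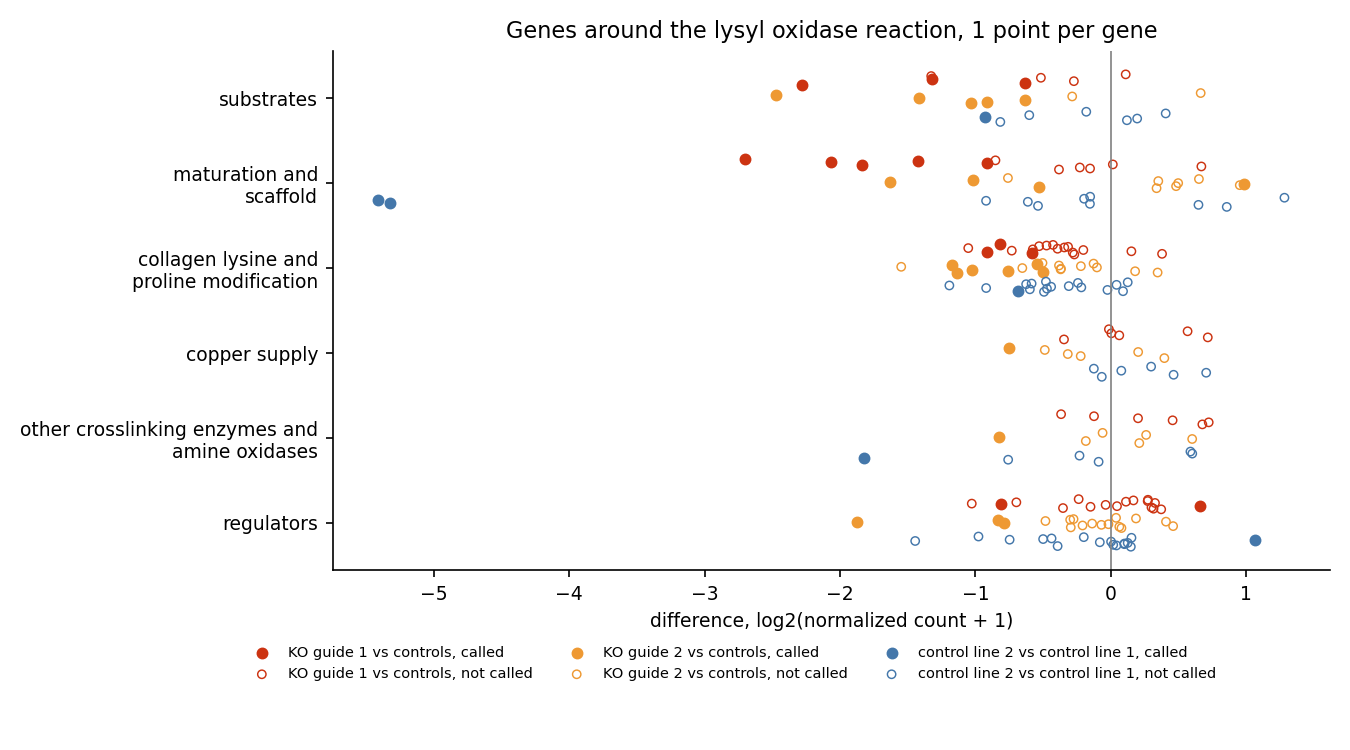
Differences on the log2(normalized count + 1) scale for the tested genes of 6 lists, 1 point per gene. Filled points passed the limma adjusted p threshold of 0.05; the substrates and collagen-modifying enzymes called in the KO-labelled lines are all lower, while FN1 and POSTN, at the far left, are the genes called between the control lines by more than 5.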

How the data were processed

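The series measured polyA RNA by RNA-seq in 8 libraries. Per the submitters' processing notes, fastp 0.23.2, HISAT2 2.2.1, featureCounts 2.0.1 and DESeq2 2.11.40.8 were used with build hg38 (GRCh38). The authors deposited normalized counts per gene (a signal scaled by a factor per library). All values above 0 were whole multiples of 1 unit per library (100.0% within 0.001 reads), so whole read counts were recovered from the deposited values for edgeR and DESeq2. Use of the strand and the annotation counted are not given in the sources used here. Symbols matched for 27745 of 28395 genes; 7487 were at 0 throughout.

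Here limma 3.58.1 (R 4.3.3) was fitted to log2(value + 1) of the genes with at least 10 in at least 2 libraries (14040), with Benjamini-Hochberg adjustment over all of them and calls at 0.05. The comparison over both lines kept the line as a correlated block (estimated correlation 0.33); single lines used line means with 1 shared spread. Alternatives were edgeR 4.0.16 and DESeq2 1.42.0, pseudocounts of 0.1 and 10, other filters and scalings, the lines averaged or taken as fixed, and each library left out; the procedure was tested on simulated data. Replicates of a line differed by more than counting noise (chi-square per degree of freedom 18.8 to 72.3). The replicate numbers in the titles paired the libraries, since deviations from line means correlated at 0.285 to 0.501 in all 6 line pairs, and a replicate block was fitted as well. Read totals of 15784890 to 22631588 limit only the low genes.

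LOXL3 was planned to be tested between lines of 1 arm, and is given there without a test. Named genes are the 5 members, ANXA4, overlapping and neighbouring genes, the most alike genes (5 for LOXL3, 3 for the others), and per list those called over both lines or else the 2 largest differences with a mean of at least 50. The members and lists were chosen with earlier results of these data known.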

Additional observations from a re-analysis of the deposited data

Results flagged for a closer look

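LOX in KO guide 2 replicate 2, at 801.5 normalized counts, stood apart from the other 3 KO-labelled libraries: its gap to the next was 0.876 of the range. These libraries come from both KO-labelled lines, and how often chance gives such a gap was not tested. The genes looked at next were the members and those named per list for their difference over both lines. Of these, the following differed between the KO-labelled lines by a test of that difference. Values are KO guide 2 minus KO guide 1 on the log2 scale with limma adjusted p. LOX differed by 0.79 with the replicate block (adjusted p = 0.0143); without the block the difference was 0.14 when KO guide 2 replicate 2 was left out and 1.44 when its replicate 1 was. LOXL2 differed by 0.76 (adjusted p = 0.0453; 0.00172 with the block), and COL1A1 by 1.25 (0.0251; 0.000108 with the block). Lower in KO guide 2 were SLC31A2 at -0.74 (0.043; 0.00737 with the block), ATP7A at -0.94 (0.0446; 0.00141 with the block) and PXDN at -1.03 (0.0091; 9.98e-05 with the block). With the block alone, THBS1 differed by 0.40 (adjusted p = 0.0259), PLOD2 by -0.64 (0.0103) and SNAI2 by -0.85 (0.0267). List genes outside that selection were called too. Without the block these were FN1, POSTN and TLL2, higher in KO guide 2, and COLGALT1, P3H2, SLC31A1 and TGFBR1, lower. Of all 14040 genes limma called 975 between these lines without the block and 3442 with it.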

How the results depend on the processing

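The LOXL3 difference over both lines was -3.06 to -2.66 on the log2 scale in 20 alternatives. Of 271 alternative values of LOX, LOXL1 and LOXL2, 267 kept their sign; the exceptions, between the control lines, were LOX at 0.03 and LOXL2 at 0.01 without control line 1 replicate 2, and LOX at 0.36 and LOXL2 at 0.19 without control line 2 replicate 1, with lowest values of -0.79 and -0.32 over the libraries left out. Over both lines the number of other members called (0) became 1 with edgeR, 1 with DESeq2 and 2 with lines taken as fixed, and 0 to 1 when a library was left out. For KO guide 1 it was 0 to 2 with a library left out, both calls being lost without control line 1 replicate 2 or either library of that line. For KO guide 2 it went from 1 to 0 with no filter, quantile normalization, edgeR or DESeq2, and was 0 to 1 with a library left out. Between the KO-labelled lines it went from 1 to 2 with the replicate block and to 0 with no filter, and was 0 to 1 with a library left out. List genes called over both lines (1) numbered 2 with no filter, 5 with edgeR, 14 with DESeq2, 0 on line means, 18 with lines taken as fixed and 0 to 1 with a library left out. The block changed no other call of a member. Genes called over both lines (33) numbered 71 with no filter, 186 with edgeR, 850 with DESeq2, 0 on line means, 1474 with lines taken as fixed and 7 to 39 with a library left out. With the replicate block the counts rose from 984 to 3432 for KO guide 1, from 1573 to 3851 for KO guide 2, from 299 to 1752 between control lines and from 975 to 3442 between KO-labelled lines; with a library left out they were 148 to 1324, 814 to 1360, 43 to 410 and 87 to 998. Between control lines no filter gave 183 and DESeq2 655. The cause was not tested. A line left with 1 library is assumed to vary like the others. Depth limits LOXL4, with 11 reads in all.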
